A study of Oryza sativa with 12 samples.

Results

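The expansin and xyloglucan endotransglucosylase/hydrolase (XTH) genes of rice were followed in the shoot apex through 4 groups of arrays. A gene was taken as a member if its symbol or a synonym, with or without the prefix Os, was *EXPA*, *EXPB*, *EXLA*, *EXLB* or *XTH* followed by a number, and if a row of the array was paired with that gene alone. The rule found 31 genes among the 15140 genes that had a row of their own: 18 α-expansins (*EXPA*), 9 β-expansins (*EXPB*), 2 expansin-like A genes (*EXLA1* and *EXLA4*), 1 expansin-like B gene (*EXLB1*) and 1 xyloglucan enzyme gene (*XTH8*). Each member had 1 row, and no member shared all its values with another row of the table. The reference gene table named 50 genes by the same rule, and the 19 without a row of their own were not analysed here. Xyloglucan enzymes are thus represented by a single gene.

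Expansins are small secreted proteins that loosen the plant cell wall without hydrolysing it, which lets cells enlarge under turgor, and they act best at the acid pH that proton pumps create in the wall. α-Expansins occur in all land plants, whereas the β-expansin family is expanded in grasses, whose walls hold glucuronoarabinoxylan and little xyloglucan. In rice, several β-expansin genes are transcribed in growing internodes and respond to gibberellin and to wounding. XTH enzymes cut xyloglucan chains and join the ends to other chains, and for the expansin-like proteins no wall-loosening activity has been shown.

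All seedlings carried *pACT1-GVG>OsWOX4:RNAi*, in which a rice actin promoter drives GVG, a fusion transcription factor that dexamethasone (DEX) activates and that then switches on an RNAi construct against *OsWOX4*, a homeobox gene of the meristem and leaf primordia. Seedlings of 5 days were shaken in liquid medium with 10 μM DEX or without it (mock) for 3 h or 12 h. Total RNA of the shoot apex, with the shoot apical meristem and leaf primordia, was hybridised to rice gene arrays of 1 color. There were 3 biological replicates each of DEX 3 h, mock 3 h, DEX 12 h and mock 12 h. The mock seedlings carried the same construct, and no wild-type seedlings treated with DEX were analysed here, so effects of DEX, of active GVG and of the RNAi cannot be told apart.

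Arrays of DEX 12 h had medians of 5.64 to 5.66 on the log2 scale, and the arrays of the other groups had medians of 5.72 to 5.76. The row of *WOX4* read 364, 389 and 432 in the DEX 12 h arrays and 134, 149 and 125 in the mock 12 h arrays, that is, higher where RNAi was induced. That row may also read the transcript of the construct, so it does not check the labels, and the arrays are called DEX-labelled here. *DL*, a gene of leaf midrib formation, differed in the same pair of groups, with 169, 122 and 139.6 in the DEX 12 h arrays and 421, 405 and 338 in the mock 12 h arrays (limma adjusted p = 4.81e-06). Detection calls were not used, so the presence of the markers of the labelled tissue was not tested. Marker lists were matched by name, with rows for 3 of 7 meristem, 3 of 8 green leaf, 6 of 8 leaf primordium, 3 of 7 root and 4 of 9 epidermal genes. Of all rows 14.9% rose and 28.0% fell at 12 h. All 3 measured meristem genes, *OSH1*, *OSH15* and *OSH71*, fell in limma at 12 h (summed signal 224 to 237 in DEX-labelled arrays, 338 to 451 in mock arrays). All 3 measured green leaf genes fell, with a summed signal of 144 to 207 in DEX-labelled arrays and 2475 to 2571 in mock arrays. Of 6 leaf primordium genes 4 fell, *DL* (-1.44), *YAB1* (-2.69), *YAB2* (-1.10) and *YAB3* (-0.80), and 2 rose, *YAB4* (2.08) and *YAB5* (1.42). Their median was -0.95 on the log2 scale, whereas their summed signal was 2946 to 3208 in DEX-labelled arrays and 1834 to 1979 in mock arrays, since *YAB5* and *YAB4* hold much of that sum. Among 3 root genes, *QHB* rose, *SHR1* fell and *LSI2* was not called (sum 283 to 391 in DEX-labelled arrays, 164 to 180 in mock arrays), and among 4 epidermal genes 2 rose and 1 fell (1494 to 1587 in DEX-labelled arrays, 1311 to 1371 in mock arrays). The part of these markers in the changes of the expansin genes was not tested. RNA of a whole apex cannot tell fewer cells of a type from less RNA per cell.

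At 12 h of DEX, 14 of the 31 genes passed an adjusted p of 0.05 in limma (45.2%), beside 43.0% of all rows. Of those rows 38653 were paired with no gene, whereas every member row was paired with 1. In a fit with 1 row per gene, 3712 of 15140 genes were higher and 5217 lower. That is a larger total share than the 45.2% of the members, which came from the fit of all rows. In the fit with 1 row per gene *EXPA3* and *EXPA26* were also called, both as higher, and no member call was lost. Both directions were also called in a larger share of genes than of all rows. By direction, 10 members were higher in the DEX-labelled arrays (32.3%), beside 14.9% of all rows, and 4 were lower (12.9%), beside 28.0% of all rows. After quantile normalization 13 members were higher (all rows 20.2%) and 3 lower (all rows 23.4%), and after median centring 12 were higher (19.0%) and 3 lower (24.9%). The members had a median of 0.29 on the log2 scale, and all rows one of -0.06. With a fold of at least 2 and an unadjusted p under 0.01, 8 members were higher (all rows 5.17%) and 2 lower (all rows 9.76%). These shares describe a list chosen with results known, and no test of the list was made.

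Among the β-expansins 5 of 9 rose (55.6%), 1 fell (11.1%) and 3 were not called, and the median of their log2 fold changes was 0.54. Among the α-expansins 4 of 18 rose (22.2%), 2 fell (11.1%) and 12 were not called, with a median of 0.27. Of all rows 14.9% rose and 28.0% fell. With 1 row per gene, 3712 of 15140 genes rose and 5217 fell. In that fit *EXPA3* (limma adjusted p = 0.0406) and *EXPA26* (0.0446) also rose, beside the 4 α-expansins counted here. The 22.2% comes from the fit of all rows and is not to be read against the share of genes. Of the expansin-like genes *EXLA1* rose, *EXLA4* fell and *EXLB1* was not called, and neither was *XTH8*. The difference between the subfamilies was not tested, since the genes of a subfamily are not replicates. The fold changes of members that passed ran between -2.50 (*EXPA6*) and 5.34 (*EXPB6*) on the log2 scale, and those of the members that did not pass lay between -0.30 (*EXPA22*) and 0.71 (*EXPA3*).

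**Figure D1:**
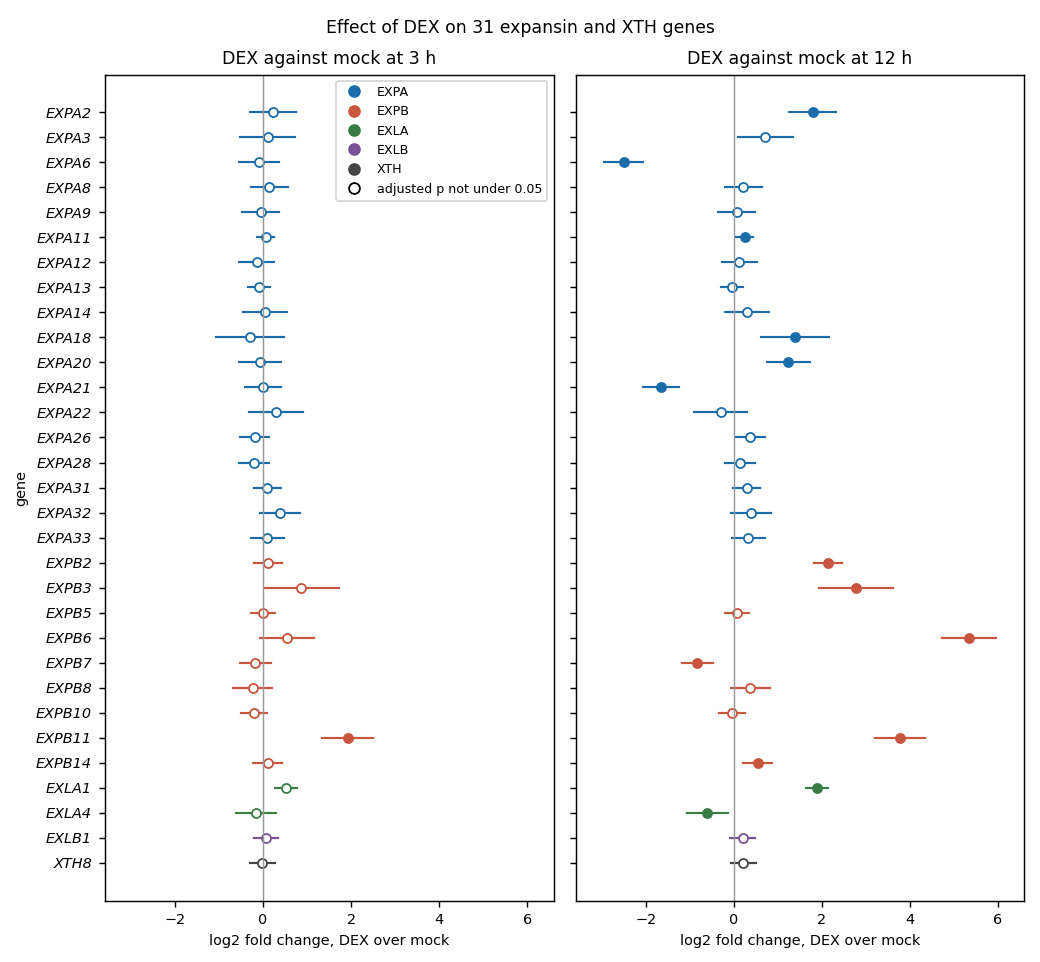
Log2 fold change of DEX over mock for each of the 31 genes at 3 h (left) and 12 h (right), with 95% confidence intervals from limma; colors mark the subfamily, and filled points passed an adjusted p of 0.05. At 3 h only *EXPB11* is filled (1.92), whereas at 12 h 14 genes are filled, with *EXPB6* farthest right (5.34) and *EXPA6* farthest left (-2.50).

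*EXPB6*, a β-expansin, had signals of 683, 822 and 803 in the DEX-labelled arrays of 12 h, against 24.4, 15.5 and 17.9 in the mock arrays of 12 h. All the DEX-labelled arrays were far above all the mock arrays. The gene was 40.6-fold higher (log2 fold change 5.34, 95% CI 4.72 to 5.96, with SE 0.28 and limma adjusted p = 7.72e-08). Of all 54922 rows 35 had a log2 fold change at least as high, this row included, and among the 15140 genes *EXPB6* was at place 16. At 3 h its signals were 53.9, 32.1 and 23 in DEX-labelled arrays and 18.1, 27.8 and 25.7 in mock arrays, which overlapped (log2 fold change 0.54, with SE 0.28 and limma adjusted p = 0.905).

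*EXPB11*, a further β-expansin, passed the limma test at both times. Its signals at 3 h were 203, 160.0 and 123 in the DEX-labelled arrays, against 30.9, 52.8 and 45.0 in the mock arrays. At 12 h they were 582, 579 and 739 in the DEX-labelled arrays, against 64.2, 44.3 and 34.5 in the mock arrays. The groups did not overlap at either time. The gene was 3.79-fold higher at 3 h (log2 fold change 1.92, with SE 0.26 and limma adjusted p = 0.0109) and 13.6-fold higher at 12 h (3.77, with SE 0.26 and limma adjusted p = 5.42e-07). At 3 h it was at place 6 among the 15140 genes by rise. The 3 h call was lost in 4 of 17 alternatives, which were an unmoderated test (adjusted p = 0.0872), the fits without replicate 1 (adjusted p = 0.0553) or replicate 3 (0.0550) of the mock 3 h arrays and the fit of the 6 arrays of 3 h by themselves (0.143). Over all 17 the log2 fold change at 3 h lay between 1.70 and 2.10.

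*EXPB3* showed the widest spread of the 31 genes between replicates, with an SD of 0.55 on the log2 scale. Its signals at 12 h were 2612, 2958 and 2822 in the DEX-labelled arrays, against 578, 485 and 241 in the mock arrays. The DEX-labelled arrays lay close together, whereas over the 6 mock arrays of both times the highest signal was 4.12 times the lowest. The rise at 12 h was 6.85-fold (log2 fold change 2.78, with SE 0.38 and limma adjusted p = 0.000115). At 3 h the signals were 486, 542 and 266 in DEX-labelled arrays and 140.4, 352 and 232 in mock arrays with overlap (log2 fold change 0.87, SE 0.38), and the limma adjusted p was 0.799.

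*EXPB2*, with a described role in the growth of rice roots, read 154, 185 and 185 in the DEX-labelled arrays of 12 h, against 37.9, 41.9 and 38.6 in the mock arrays. The arrays did not overlap, and the gene rose 4.41-fold (log2 fold change 2.14, with SE 0.14 and limma adjusted p = 3.98e-07). At 3 h the signals were 35.5, 35 and 47.3 in DEX-labelled arrays and 42.0, 34.2 and 32.6 in mock arrays, at about the level of mock 12 h. In the order of the reference gene table *EXPB6*, *EXPB2* and *EXPB3* are direct neighbours on 1 chromosome, and all 3 rose at 12 h. Their log2 fold changes there were 5.34, 2.14 and 2.78.

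*EXPB14* is the direct neighbour of *EXPB11* and had the smallest rise at 12 h among the β-expansins that passed. Its signals at 12 h were 91.5, 107 and 83.9 in the DEX-labelled arrays, against 62.3, 68.2 and 63.4 in the mock arrays, without overlap (log2 fold change 0.54, with SE 0.15 and limma adjusted p = 0.0125). Without replicate 2 of DEX 12 h its adjusted p was 0.0536. The 2 neighbours therefore differed widely in size of response, with log2 fold changes at 12 h of 0.54 for *EXPB14* and 3.77 for *EXPB11*. *EXPB7* was the β-expansin that fell, to 51.8, 33.4 and 43.5 in the DEX-labelled arrays of 12 h, against 76.6, 84.0 and 65.8 in the mock arrays (log2 fold change -0.83, with SE 0.16 and limma adjusted p = 0.00126). All its DEX-labelled arrays were below all its mock arrays. *EXPB5*, *EXPB8* and *EXPB10* were not called, with log2 fold changes at 12 h of 0.07, 0.38 and -0.04. Expansins of a subfamily are similar in sequence, and whether probes of a row also bind the transcript of another member was not tested.

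**Figure D2:**
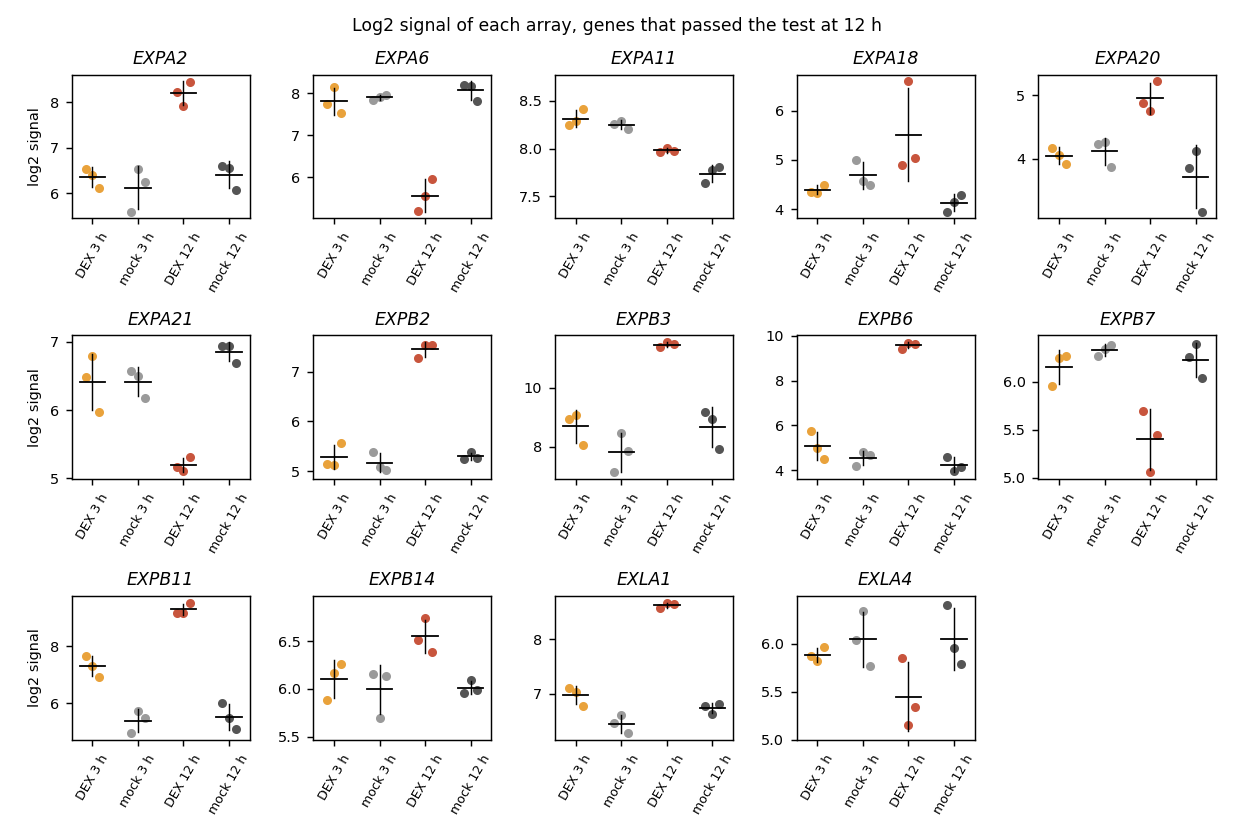
Log2 signal of every array for the 14 genes that passed an adjusted p of 0.05 at 12 h, in DEX 3 h, mock 3 h, DEX 12 h and mock 12 h; points are arrays, bars the mean and vertical lines 1 SD (n = 3), and each panel has its own axis. The 12 h pair is separated in every panel except that of *EXLA4*, and in the 3 h pair the arrays are separated only for *EXPB11* and *EXLA1*.

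*EXPA6*, an α-expansin, had the largest fall among the 31 genes. Its signals were 36.4, 47.3 and 62.0 in the DEX-labelled arrays of 12 h, against 296, 291 and 225 in the mock arrays of 12 h. It was 5.66-fold lower in the DEX-labelled arrays (log2 fold change -2.50, 95% CI -2.95 to -2.06, with SE 0.20 and limma adjusted p = 1.77e-06). At 3 h its signals of 214, 286 and 185 in DEX-labelled arrays enclosed those of 231, 239 and 248 in mock arrays. *EXPA21*, also an α-expansin, followed the same course with 35.8, 34.5 and 39.8 in the DEX-labelled arrays of 12 h, against 122, 123 and 103 in the mock arrays. It was 3.16-fold lower (log2 fold change -1.66, with SE 0.19 and limma adjusted p = 2.34e-05), and at 3 h its log2 fold change was within 0.01 of 0.

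*EXPA2* had the largest rise of the α-expansins. Its signals at 12 h were 298, 242 and 350.0 in the DEX-labelled arrays, against 97.2, 94.0 and 67.4 in the mock arrays. The arrays did not overlap (3.45-fold, log2 fold change 1.79, with SE 0.24 and limma adjusted p = 8.71e-05). At 3 h the signals were 93.5, 84.5 and 69.3 in DEX-labelled arrays and 48.6, 92.7 and 76.4 in mock arrays, with overlap.

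*EXPA18* and *EXPA20*, which have 1 gene between them in the reference order, both rose at 12 h at low signals. *EXPA18* read 29.8, 96.9 and 32.9 in the DEX-labelled arrays, against 15.4, 17.6 and 19.6 in the mock arrays. Replicate 2 of DEX 12 h stood apart from the other DEX-labelled arrays, and leaving it out changed the log2 fold change from 1.39 (with SE 0.35 and limma adjusted p = 0.00741) to 0.84 (with SE 0.16 and limma adjusted p = 0.00188). *EXPA20* read 29.4, 26.9 and 37.3 in the DEX-labelled arrays, against 14.4, 17.5 and 8.99 in the mock arrays (log2 fold change 1.23, with SE 0.22 and limma adjusted p = 0.000756). *EXPA12*, with 2 genes between it and *EXPA18*, had a log2 fold change of 0.12 and was not called.

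*EXPA11* combined the smallest spread between replicates, an SD of 0.07 on the log2 scale, with the smallest rise that passed. Its signals at 12 h were 249.7, 258 and 251 in the DEX-labelled arrays, against 199, 219 and 224 in the mock arrays (log2 fold change 0.24, with SE 0.09 and limma adjusted p = 0.0415). The call was lost when any single array of 12 h was left out (adjusted p = 0.0529 to 0.147). At 3 h the signals were 304, 312 and 340.3 in DEX-labelled arrays and 306, 313 and 295 in mock arrays, all above those of 12 h. The gene was thus lower at 12 h than at 3 h under both treatments, and mock 12 h against mock 3 h gave a log2 fold change of -0.51 (with SE 0.09 and limma adjusted p = 0.168), the smallest adjusted p of any member in that comparison.

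The other 12 α-expansins were not called at 12 h. Nearest to the limit was *EXPA3*, whose DEX-labelled arrays of 12 h read 46.6, 16.6 and 25.3, against 16.2, 17.8 and 15.4 in the mock arrays (log2 fold change 0.71, with SE 0.28 and limma adjusted p = 0.0638). Replicate 2 of DEX 12 h was at the level of the mock arrays, and without it the log2 fold change was 1.06 (adjusted p = 0.00362). *EXPA8* and *EXPA9*, direct neighbours, had 0.22 and 0.06, and *EXPA13* and *EXPA14*, with 1 gene between them, had -0.04 and 0.29. Many of these rows were dim: 14 of the 31 members were in the dimmest 25% of all rows by their mean over the 12 arrays, and of these *EXPA20* was the 1 called at 12 h. A gene near the lower end of the signal range may change without passing the test, so a missing call there does not show a constant level.

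*EXLA1*, an expansin-like A gene, read 380.3, 402 and 399 in the DEX-labelled arrays of 12 h, against 109.7, 99.1 and 112 in the mock arrays. The replicates were tight, and the gene was 3.69-fold higher (log2 fold change 1.88, with SE 0.12 and limma adjusted p = 2.33e-07). At 3 h the signals were 138, 131 and 109.8 in DEX-labelled arrays and 88.4, 97.3 and 77.3 in mock arrays. These did not overlap, but the log2 fold change of 0.52 (SE 0.12) did not pass over all rows (adjusted p = 0.173). It passed when the adjustment ran over 1 row per gene (adjusted p = 0.0473).

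*EXLA4* moved the other way, with 57.6, 35.5 and 40.5 in the DEX-labelled arrays of 12 h and 85.0, 62.1 and 55.3 in the mock arrays. These overlapped, since the highest DEX-labelled array was above the lowest mock array (log2 fold change -0.60, with SE 0.21 and limma adjusted p = 0.0355). The call was lost in 8 of 17 alternatives: after median centring (adjusted p = 0.0626) or quantile normalization (0.0660), without moderation (0.0700), with the 6 arrays of 12 h alone (0.0681), and without replicate 1 (0.141) or 2 (0.0572) of mock 12 h or replicate 2 (0.137) or 3 (0.0945) of DEX 12 h. *EXLB1* read 15.2, 15.7 and 19.0 in the DEX-labelled arrays of 12 h and 13.7, 15.7 and 14 in the mock arrays (log2 fold change 0.20, 95% CI -0.08 to 0.47, limma adjusted p = 0.245).

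*XTH8* is a xyloglucan enzyme gene that responds to gibberellin in rice. Its signals at 12 h were 206, 252 and 213 in the DEX-labelled arrays and 226, 189 and 167 in the mock arrays. The arrays overlapped, and the log2 fold change was 0.21 (95% CI -0.08 to 0.49, limma adjusted p = 0.224). At 3 h it was -0.02 (95% CI -0.30 to 0.27). It passed at 12 h in 1 of 17 alternatives, quantile normalization (0.38, limma adjusted p = 0.0376), and with single arrays left out its adjusted p lay between 0.0716 and 0.585.

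At 3 h, *EXPB11* was the only member called (3.23% of 31), beside 0.244% of all rows, and no member fell (all rows 0.00364%). Arrays of DEX and mock were fully apart for 2 of the 31 genes, *EXPB11* and *EXLA1* (6.45%), beside 10.7% of all rows, and both had the DEX-labelled arrays on top (5.21% of all rows; no member was fully below, 5.49% of all rows). At 12 h they were apart for 17 genes (54.8%), beside 52.5% of all rows, and the DEX-labelled arrays were above in 14 of these (all rows 20.2%) and below in 3 (all rows 32.2%). The median log2 fold change at 3 h was 0.02 for the α-expansins and 0.11 for the β-expansins.

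The difference between the DEX effect at 12 h and that at 3 h passed an adjusted p of 0.05 in limma for 11 members (35.5%), beside 29.9% of all rows. It was positive for 8 members (10.4% of all rows): *EXPB6*, *EXPB2*, *EXPB3*, *EXPB11*, *EXPA18*, *EXPA2*, *EXLA1* and *EXPA20*. It was negative for 3 members, *EXPA6*, *EXPA21* and *EXPB7* (19.5% of all rows). These are 11 of the 14 genes called at 12 h. With 1 row per gene the difference was called positive for 2874 of 15140 genes and negative for 4334. The total share of genes was thus larger than that of members, also with *EXPA26*, which passed in that fit (limma adjusted p = 0.0398). *EXPB11*, already higher at 3 h, gained a further 1.85 on the log2 scale (with SE 0.37 and limma adjusted p = 0.00290). For *EXPA11*, *EXPB14* and *EXLA4* the difference was not called. Both effects are taken against mock arrays of their own time.

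No member and no row of the table (0% of all rows) was called between mock 12 h and mock 3 h in limma at an adjusted p of 0.05. At an unadjusted p under 0.05 there were 4 members and 5614 rows, and a variance trend with intensity called 3 rows and none of the members. Leaving out rows below the median signal gave 1 row higher and 1 lower. Without replicate 2 of mock 3 h, 3 rows were higher and 6 lower. The largest log2 changes of members between mock 12 h and mock 3 h were 0.85 for *EXPB3* (with SE 0.38 and limma adjusted p = 0.486) and -0.56 for *EXPA18* (with SE 0.35 and limma adjusted p = 0.614). By comparison, relative to mock 3 h the median of the β-expansins was 0.11 in DEX 3 h, 0.55 in DEX 12 h and 0.02 in mock 12 h, and that of the α-expansins was 0.02 in DEX 3 h, 0.04 in DEX 12 h and -0.09 in mock 12 h.

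**Figure D3:**
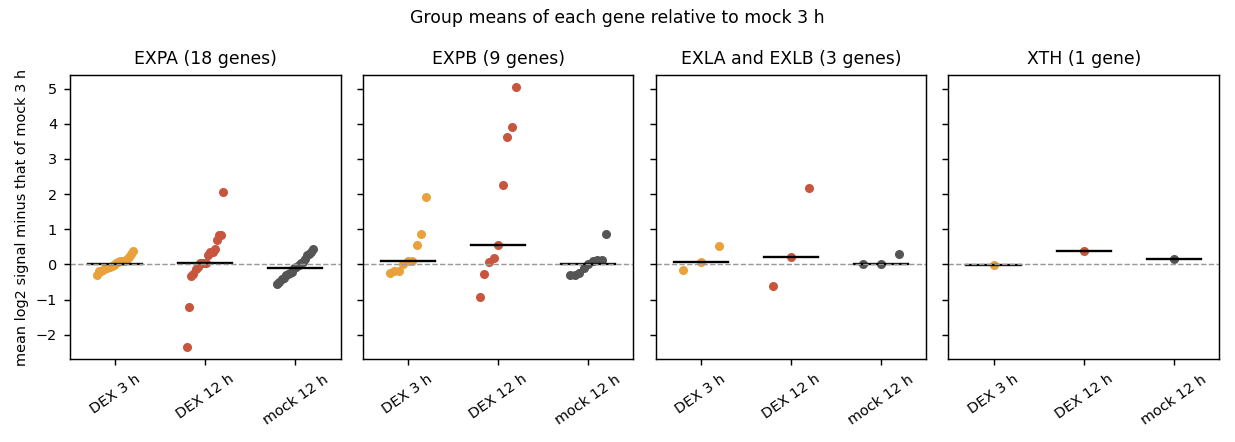
Mean log2 signal of each gene in DEX 3 h, DEX 12 h and mock 12 h minus its mean in mock 3 h, by subfamily; each point is a gene and the bar is the median of the subfamily. The β-expansins in DEX 12 h spread between -0.93 and 5.03 with a median of 0.55, whereas the α-expansins spread between -2.33 and 2.07 around a median of 0.04, and the DEX 3 h and mock 12 h points lie near 0 with few exceptions.

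Other genes of wall synthesis and loosening were read from the same fit. Of 36 genes matched by name to such lists, 9 rose (all rows 14.9%) and 9 fell (all rows 28.0%) at 12 h. Together that is 50%, beside 43.0% of all rows. With 1 row per gene, 3712 of 15140 genes rose and 5217 fell, which is more than 50% of genes. The 36 genes were counted in the fit of all rows only. The median of the 36 genes was 0.08 on the log2 scale. The lists may hold genes that only share a name, such as *BC1* below. Among endo-1,4-β-glucanases, which cut glucan chains of the wall, *GLU8* and *GLU3* had the largest rises. *GLU8* had 572, 675 and 588 in the DEX-labelled arrays of 12 h, against 65.5, 62.0 and 60.3 in the mock arrays (log2 fold change 3.29, with SE 0.10 and limma adjusted p = 2.45e-09). *GLU3*, which acts in rice root growth, had 286, 410.1 and 424 in the DEX-labelled arrays and 61.6, 48.6 and 50.7 in the mock arrays (2.79, with SE 0.22 and limma adjusted p = 1.51e-06). Of the 9 genes of that list 3 rose (all rows 14.9%) and 2 fell (all rows 28.0%), with a median of 0.14 on the log2 scale. Those that fell were *GLU2* (-0.98, with SE 0.13 and limma adjusted p = 6.56e-05) and *GLU12* (-0.75, with SE 0.19 and limma adjusted p = 0.00646).

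The cellulose synthase-like genes, which make hemicelluloses, were called at shares near those of the table, with 2 of 15 higher (all rows 14.9%) and 5 lower (all rows 28.0%) and a median of -0.08 on the log2 scale (all rows -0.06). The largest fall there was that of *CSLA1*, of a family of mannan synthases, at 416, 457 and 482 in the DEX-labelled arrays of 12 h, against 2226, 2245 and 1989 in the mock arrays (log2 fold change -2.25, with SE 0.13 and limma adjusted p = 1.11e-07). Among 6 cellulose synthases *CESA6* rose (0.90, with SE 0.10 and limma adjusted p = 1.75e-05) and the others were not called. Both genes matched by polygalacturonase inhibitor names rose. Of these, *FOR1* is also named *PGIP-1* (log2 fold change 2.55). The other, at 0.46, is also named *LRR1* and may not be such an inhibitor. Of 4 genes matched by COBRA-like names 1 rose and 2 fell. *BC1* was among those that fell (-0.86, with SE 0.15 and limma adjusted p = 0.000513). That gene is also named *bHLH081* and may not be a COBRA-like gene. At 3 h, 1 of the 36 genes was called, a polygalacturonase inhibitor. Proton pumps, pectin methylesterases, arabinogalactan proteins and xyloglucan glycosyltransferases were not analysed here.

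**Figure D4:**
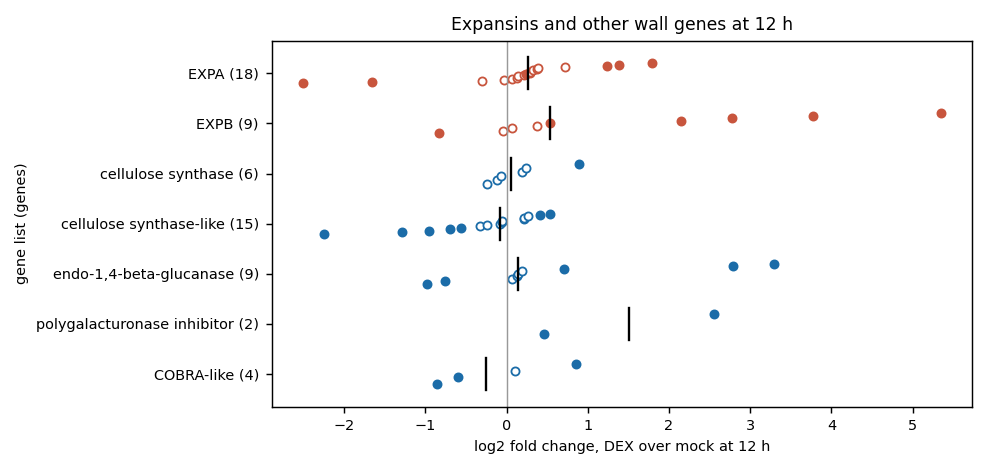
Log2 fold change of DEX over mock at 12 h for the α- and β-expansins (red) and for other wall genes by list (blue), with the number of genes in parentheses; filled points passed an adjusted p of 0.05 and vertical bars are list medians. The β-expansins reach the highest value (5.34), *GLU8* and *GLU3* follow among the other lists (3.29 and 2.79), and the cellulose synthase-like genes hold 5 filled points below 0 and 2 above it.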

How the data were processed

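Total RNA was measured on 12 Rice (US) Gene ST arrays, 3 in each of 4 labelled groups. The authors processed the scans in Affymetrix Expression Console 1.3; the table they deposited was taken to hold log2 signals, judging by its range, and signals in the text are on the linear scale. It was used as deposited, with all 54922 rows. Arrays have no read depth, so their number limits the precision, and detection calls were not used. A platform annotation paired 15829 rows with 1 gene, and a RefSeq gene table of assembly ASM3414082v1 gave names and neighbours only.

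The 4 group means were fitted in limma 3.58.1 (R 4.3.3) over the 12 arrays, with Benjamini-Hochberg adjustment across every row. The fit was tested on simulated data. Alternatives covered other scalings, filters on dim rows, a variance trend, no moderation, 1 row per gene, the replicate number as a block, the 6 arrays compared, a fold rule and each array left out; counting identical rows once and keeping rows with 1 gene were chosen after seeing the data.

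Named genes were *EXPB6*, *EXPB11*, *EXPA6*, the called members with the largest changes in each subfamily, the member of highest mock signal in each subfamily and members called between times. Other members and the wall genes with values were chosen after their values were seen. Members and lists were chosen with earlier results of these data known.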

Additional observations from a re-analysis of the deposited data

Results flagged for a closer look

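For 11 members the DEX effect differed between 12 h and 3 h by a test of the difference in limma (adjusted p under 0.05 over all rows). The log2 difference, 12 h minus 3 h, was 4.80 for *EXPB6*, 2.03 for *EXPB2*, 1.91 for *EXPB3*, 1.85 for *EXPB11*, 1.68 for *EXPA18*, 1.56 for *EXPA2*, 1.36 for *EXLA1* and 1.3 for *EXPA20*. It was -2.41 for *EXPA6*, -1.66 for *EXPA21* and -0.66 for *EXPB7*. For *EXPB7* the adjusted p was 0.0477. It was over 0.05 after centring on the median (0.0710), after quantile normalization (0.0749) and in an unmoderated test (0.0759). The same held without any 1 of 9 arrays (0.0631 to 0.108). The difference for *EXPA18* was lost in an unmoderated test (0.0647) and without replicate 1 of mock 3 h, DEX 3 h or mock 12 h (0.0501 to 0.0590), and that for *EXPB3* in an unmoderated test (0.0570).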

How the results depend on the processing

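The number of members called at 3 h was 1, and it was 0 in an unmoderated test and when just the 6 arrays of 3 h were fitted, 2 with 1 row per gene and 2 with only rows paired with 1 gene, where fewer rows are tested; leaving out 1 array gave 0 to 1 (0 without replicate 1 or 3 of mock 3 h). At 12 h the number of genes that fell was 4, and 2 with a fold of at least 2 and an unadjusted p under 0.01, which also took the β-expansins that fell from 1 to 0. The α-expansins that rose were 4, and 2 where rows below the median signal were left out, since the rows of *EXPA18* and *EXPA20* were among those removed. More α-expansins rose after median centring, with 1 row per gene and with only rows paired with 1 gene, where *EXPA3* and *EXPA26* were also called. Quantile normalization also called more, adding *EXPA26* and *EXPA31*. No fold change of a called gene changed sign. With the replicate number as a block, 14 members were called at 12 h and 1 at 3 h, as without it, but *EXPA11* was lost (adjusted p = 0.0564) and *EXPA3* was called (0.0465), and of the 11 differences between times 10 were called, without *EXPB7*. The replicate numbers did not pair the arrays: over 18 same-numbered pairs the deviations correlated between -0.05 and 0.17, with 1 pair over 0.1. Besides the genes named above, *EXPA33* and *EXPB8* passed at 12 h under 1 alternative each. Signals near the lower end of the array limit what dim members can show.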
